A study of Mus musculus with 4 samples.

Results

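The genes described here encode calcium-permeable channels, the pumps and release channels of calcium stores, and the proteins that read a calcium signal, in cultured mouse fat cells in which the calcium channel gene Trpv4 was targeted. A list of 34 genes was taken, and every probe set whose platform annotation names exactly 1 of them was kept. That gave 57 probe sets for 26 genes, of 20380 single-gene probe sets and 12393 genes on the arrays. The 1 probe set listed for S100a11 also names other genes, so it was left out, and Pkd2, Cacnb3, Stim2, Itpr1, Atp2b1, Calm2 and Calm3 were not analysed here. The cells were 3T3-F442A, a mouse preadipocyte line that turns into fat cells in culture. Those labelled shTRPV4 carried a retroviral short hairpin RNA against Trpv4, and those labelled shGFP, the control, a hairpin against GFP, with 2 arrays in each group. All cells had gone through 2 days of puromycin at 2 ug/ml, and, once confluent, 8 days of 850 nM insulin in medium with 10% serum, with rosiglitazone, a PPAR gamma agonist, for the first 2 of those days. The labels give neither the hairpin sequences nor whether the 2 arrays of a group came from separate infections or cultures. The p-values therefore refer to the array-to-array spread alone, and that spread may be technical.

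A resting cell holds its cytosol at a far lower calcium level than the medium or the endoplasmic reticulum. Channels of the TRP family and store-operated channels let calcium in, IP3 receptors release it from the reticulum, and ATP-driven pumps return it. Calmodulin binds the calcium that enters and switches on kinases and the phosphatase calcineurin, which sends NFAT transcription factors to the nucleus, while S100 proteins are small calcium-binding adaptors. TRPV4 itself opens to heat, cell swelling and lipid ligands, and is known in fat cells as a regulator of thermogenic and inflammatory genes.

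Few of the calcium genes were called different between the groups. On each gene's brightest probe set (the one with the highest mean over the 4 arrays), 1 of 26 genes was higher in the shTRPV4 arrays, the kinase gene Camk1, and 1 was lower, the calcineurin catalytic subunit gene Ppp3ca. A gene counted as called when its limma p-value, Benjamini-Hochberg adjusted over all 22626 probe sets, was under 0.05. The calls make up 3.85% of these genes in each direction, where the same threshold called 5.33% of all genes higher and 6.0% lower, so the calcium genes were not called more often than other genes. With the values as deposited the calls over all genes were 380 higher and 718 lower, and with median centring 1036 higher and 708 lower, against 661 and 744 here. For the calcium genes the split was 1 and 0, and 1 and 1, in those settings. Over all 57 probe sets, 3 were higher and 3 lower (5.26% each, against 4.54% and 5.36% of all probe sets). Leaving out any 1 array, or fitting the replicate number as a block, left 0 called genes of any kind, in fits with 1 residual degree of freedom.

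Differences below are shTRPV4 minus shGFP, taken on quantile-normalized log2(intensity + 16), a scale that makes fold changes of dim probe sets look smaller. Values per array are the deposited linear intensities, in the order of replicate 1 and replicate 2. The median difference of the 26 genes was −0.01, beside 0.02 over all genes, and the median absolute difference 0.14, beside 0.19. Both shTRPV4 arrays lay above both shGFP arrays after normalization for 9 of the 26 (34.6%, against 33.2% of all genes) and below them for 6 (23.1%, against 27.7%), as the plot of the genes by array shows. At an unadjusted limma p under 0.05 the share was 26.9%, 7 of 26, against 33.1% of all genes. The 95% intervals of 25 of the 26 genes lay between −1 and 1, that is, within a 2-fold change in either direction on this scale, as did those of 90.2% of all genes. The exception was Trpv4. Intervals between −0.5 and 0.5 were found for 14 of the 26 (53.8%, against 48.7% of all genes). For the remaining genes a difference of that size is not excluded.

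**Figure D1:**
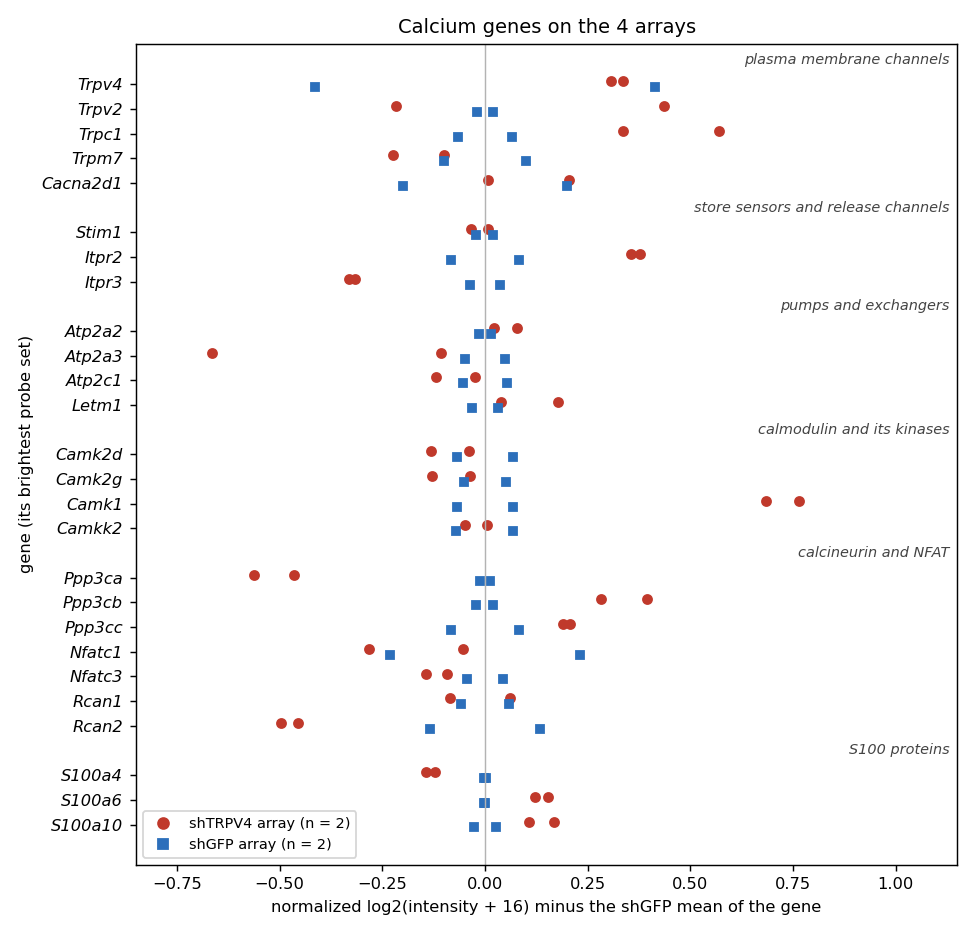
Normalized log2(intensity + 16) of each of the 26 calcium genes on its brightest probe set, with the gene's shGFP mean subtracted, for 2 shTRPV4 arrays (red circles) and 2 shGFP arrays (blue squares), by role. Camk1 lies to the right of its shGFP arrays and Ppp3ca to the left, while the groups overlap for 11 of the 26 genes.

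The cells themselves differed between the groups in markers of cell type. Fat cell identity was clear in both. Adipoq, which encodes adiponectin, read 13294 and 14169 in the shTRPV4 arrays and 11785 and 11816 in the shGFP arrays (0.16, limma adjusted p = 0.20). Fabp4, which encodes a fatty acid carrier, read 19142 and 19625 against 18222 and 18099 (Plin1 was not analysed here). These Fabp4 values are the highest on each array, so quantile normalization set its difference to 0. Of 11 measured adipocyte markers 5 were higher and 0 lower in the shTRPV4 arrays. The 5 were Retn (1.90), Slc2a4 (1.16), Cebpa (0.88), Dgat2 (0.46) and Pparg (0.45). The dimmer Dgat2 probe set differed by 0.48 and did not pass. The same threshold called 5.33% of all genes higher and 6.0% lower. The summed intensity of the 11 was 68751 and 71959 against 59456 and 59129. All sums here are of deposited intensities, without normalization. Fabp4, Lpl and Adipoq weigh most in the adipocyte sum, and their normalized differences were 0, −0.05 and 0.16, none of them called. Of 11 preadipocyte and fibroblast markers 7 were lower and 0 higher, among them Pdgfra (−1.25, SE 0.06, adjusted p = 0.0147) and Dlk1 (−1.24, SE 0.08, adjusted p = 0.0157), with sums of 47848 and 48223 in the shTRPV4 arrays and 60236 and 62124 in the shGFP arrays. Of 12 macrophage markers 3 were lower (differences of −1.89 for Lyz2, −0.96 for Cd14 and −0.85 for Csf1r) and 1, Cd68, was higher (1.49), with sums of 763.8 and 696.4 against 1051 and 1142. The other 2 Csf1r probe sets had differences of −0.13 and −0.06 that did not pass. The leukocyte marker Ptprc read 11.25 and 10.7 in the shTRPV4 arrays and 11.1 and 5.43 in the shGFP arrays, below the offset of 16, while the macrophage marker Adgre1 read 94.0 and 83.7 against 73.0 and 70.5. Of 6 smooth muscle markers 1, Des, was higher (0.52, but 0.11 on a dimmer probe set that did not pass), with sums of 3611 and 3443 against 4302 and 4502. Acta2 read 3006 and 2777 in the shTRPV4 arrays and 3782 and 3857 in the shGFP arrays (−0.40, adjusted p = 0.0698). Tagln (−0.63, adjusted p = 0.14) and Cnn1 (−0.42, adjusted p = 0.11, read below the offset) also had both shTRPV4 arrays below both shGFP arrays without passing, and Myh11 read 18.3 and 24.6 against 11.8 and 18.7. Apart from Adipoq, Fabp4, Plin1, Pdgfra, Dlk1, Adgre1, Ptprc and Myh11, these markers were picked for naming after their values were seen. None of the marker genes was listed at 0, but this does not show that they were detected. On each array 1.85% to 2.08% of the values were exactly 1, and the neutrophil marker Elane was among them on replicate 2 of shTRPV4. The part of these markers in the results below was not tested. In such bulk RNA a change in the number of fat cells or preadipocytes and a change in RNA per cell cannot be told apart. The labels name only the 3T3-F442A line. The macrophage and smooth muscle lists, and the neutrophil list below, are therefore read as genes and not as cells present.

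Among the channels of the plasma membrane, 0 of 5 genes passed the threshold in either direction with limma (1 at an unadjusted p under 0.05, against 33.1% of all genes). Trpv4, the target of the hairpin, was not measurably lower. Its only probe set, 1417545_at, read 80.1 and 79.5 in the shTRPV4 arrays and 43.7 and 93.8 in the shGFP arrays. Both shTRPV4 values lay between the shGFP values, which differed from each other more than the groups did. The difference was 0.32 with a 95% interval from −0.55 to 1.19 (SE 0.31, adjusted p = 0.55), and it was −0.09 without replicate 1 of shGFP and 0.73 without replicate 2 of shGFP. Its level on these arrays thus gives no check of the knockdown, and both groups go by their labels throughout.

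Trpc1, a channel subunit linked to receptor- and store-operated entry, came nearest to a call in this group. Its probe set 1421096_at read 119.9 and 148.5 in the shTRPV4 arrays and 102.9 and 96.8 in the shGFP arrays, without overlap, a difference of 0.45 (SE 0.11, adjusted p = 0.0934). It passed in 1 of 13 alternatives, with probe sets under the 25th percentile left out (adjusted p = 0.0473). Its other probe set, 1421095_a_at, differed by 0.33 (adjusted p = 0.26). Trpm7, a channel fused to a kinase that carries magnesium and calcium, read 995.3 and 945.6 against 1173 and 1051 on 1416799_at, with groups that overlapped after normalization (−0.16, 95% interval −0.46 to 0.14). Its 3 probe sets had differences of both signs. Trpv2, a relative of Trpv4 described in brown fat cells, read 11.98 and 27.3 in the shTRPV4 arrays and 17.1 and 16.3 in the shGFP arrays, around the offset (0.11, 95% interval −0.58 to 0.80). Cacna2d1, the alpha2delta subunit of voltage-gated channels, read 91.1 and 109.1 against 81.2 and 118.0 (0.11, 95% interval −0.38 to 0.60).

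Of the genes of the internal stores, 0 of 3 passed on the brightest probe set with limma. An unadjusted p under 0.05, found for 33.1% of all genes, was found for 2 of them, with opposite signs. These were the IP3 receptors, the channels through which the second messenger IP3 releases calcium from the endoplasmic reticulum. The probe sets of Itpr2 disagreed. The brightest, 1427287_s_at, read 586.5 and 615.2 in the shTRPV4 arrays and 495.1 and 465.6 in the shGFP arrays (0.37, SE 0.09, adjusted p = 0.0825). A dimmer one, 1424834_s_at, was the only one of the 5 past the threshold, at 209.1 and 232.7 against 150.4 and 160.6 (0.54, SE 0.07, adjusted p = 0.0333). On both the shTRPV4 arrays lay above the shGFP arrays. Probe sets with _s_at in their names can read related transcripts, and 1424833_at, which has no such mark, gave 132.1 and 145.1 against 102.9 and 85.1 (0.57, SE 0.12, adjusted p = 0.0716). Of the remaining pair, 1421678_at differed by 0.08 and 1427693_at had the opposite sign, at 49.4 and 34.5 in the shTRPV4 arrays and 57.9 and 64.6 in the shGFP arrays (−0.36, adjusted p = 0.20).

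Itpr3, another IP3 receptor, read 134.3 and 139.9 in the shTRPV4 arrays and 176.6 and 196.5 in the shGFP arrays on its only probe set. The groups did not overlap, and the difference of −0.32 (SE 0.07, adjusted p = 0.0664) missed the threshold. Stim1, the sensor in the reticulum membrane that opens store-operated channels when the store empties, read 261.4 and 279.3 against 273.9 and 297.5 (−0.01, 95% interval −0.19 to 0.17), and its dimmer probe set 1436945_x_at had the opposite sign (0.26, 95% interval −0.37 to 0.90). Orai1, the plasma membrane pore that Stim1 opens and a gene outside the 34, read 156.0 and 132.8 in the shTRPV4 arrays and 189.7 and 188.8 in the shGFP arrays (−0.28, SE 0.11, adjusted p = 0.19); it was chosen after its values were seen.

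Of the pumps and exchangers 0 of 4 passed with limma in either direction (also 0 at an unadjusted p under 0.05), with differences on the brightest probe sets from −0.39 to 0.11. Atp2a2 encodes SERCA2, the pump that refills the endoplasmic reticulum. On its brightest probe set, 1427250_at, it read 2901 and 3085 in the shTRPV4 arrays and 2896 and 2912 in the shGFP arrays (0.05, 95% interval −0.13 to 0.23). Of its other 3 probe sets, 1416551_at read 1403 and 1578 against 1230 and 1230 (0.31, SE 0.08, adjusted p = 0.0934), while 1452363_a_at had a difference of the opposite sign, at 1016 and 931.6 against 1289 and 1282 (−0.37, SE 0.09, adjusted p = 0.0877). Neither passed, and neither pair of groups overlapped. Which transcripts each probe set reads is not given in the sources used here.

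Atp2a3, which encodes SERCA3, read 85.9 and 53.9 in the shTRPV4 arrays and 95.3 and 107.5 in the shGFP arrays. The groups did not overlap, but the shTRPV4 arrays lay far apart from each other, and the difference of −0.39 had a 95% interval from −0.99 to 0.22. Its other probe set, read below the offset, differed by 0.07. Atp2c1, the calcium and manganese pump of the Golgi, read 603.8 and 585.0 against 654.1 and 639.9 (−0.07, 95% interval −0.30 to 0.15), and its second probe set had the opposite sign (0.07, 95% interval −0.35 to 0.50). Letm1, an ion exchanger of the inner mitochondrial membrane, read 777.8 and 730.0 against 687.9 and 752.2 (0.11, 95% interval −0.13 to 0.34). Its dimmest probe sets, with readings from 4.08 to 30.0, differed by 0.79 (1460284_at) and −0.30 (1420825_at), and neither passed.

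**Figure D2:**
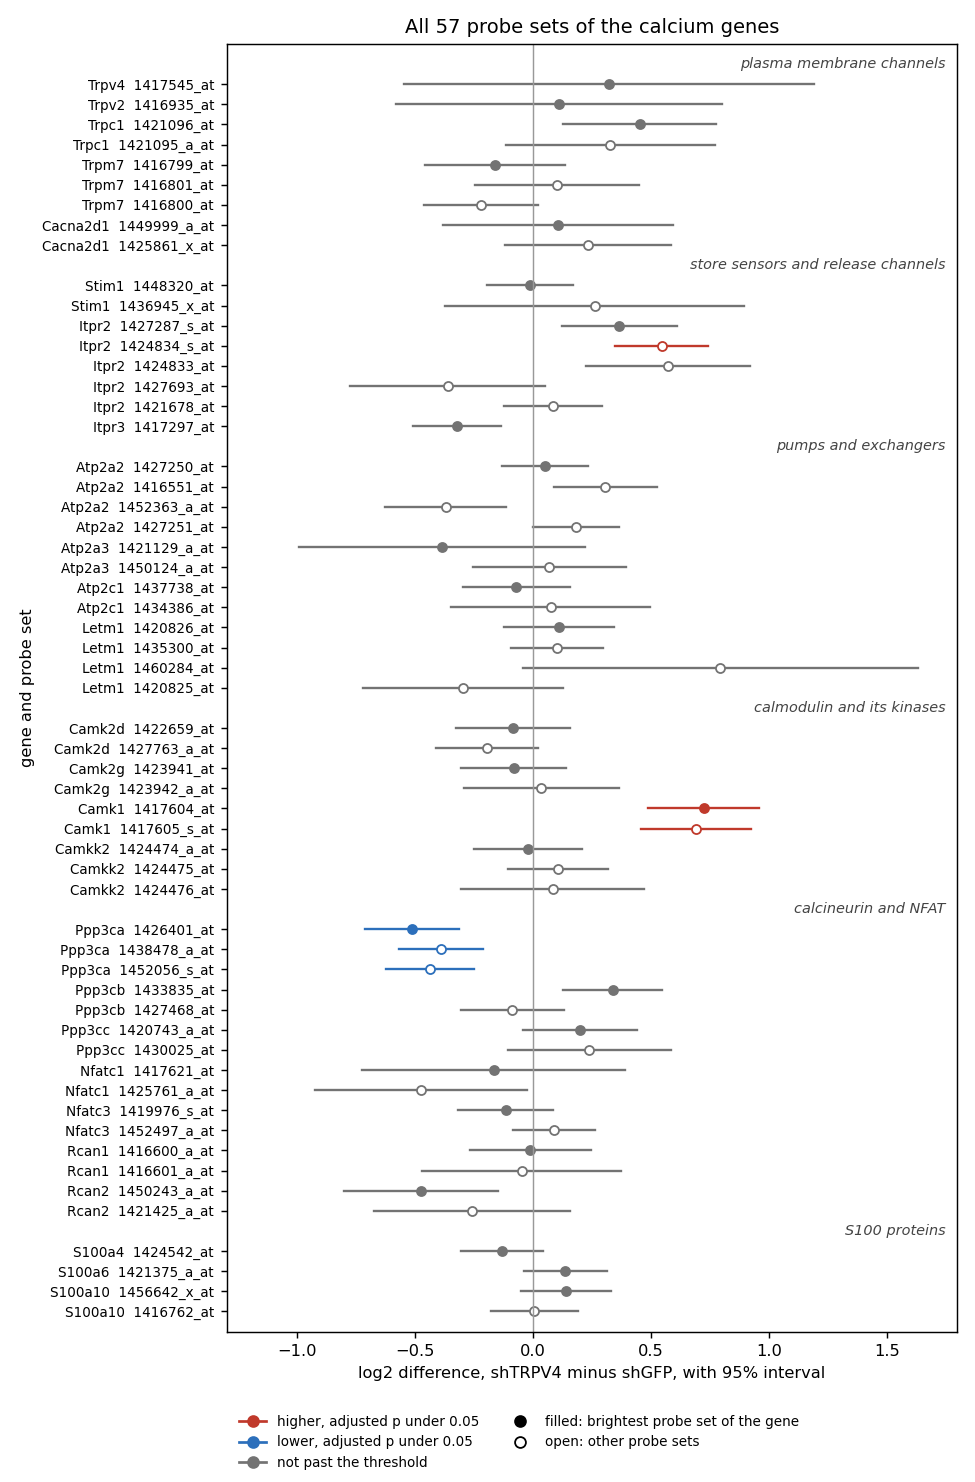
Log2 difference, shTRPV4 minus shGFP, with its 95% interval for all 57 probe sets of the 26 calcium genes, by role; filled points are the brightest probe set of a gene. The 3 probe sets in red (2 of Camk1 and 1 of Itpr2) passed the threshold as higher and the 3 in blue (all of Ppp3ca) as lower, and the widest intervals belong to Trpv4 and to a Letm1 probe set read near the offset.

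Camk1 was the calcium gene that rose. It encodes a calcium/calmodulin-dependent kinase that is switched on fully when another kinase, CaMKK, phosphorylates it. On its brightest probe set, 1417604_at, Camk1 read 1372 and 1492 in the shTRPV4 arrays and 814.2 and 944.7 in the shGFP arrays. On 1417605_s_at it read 790.1 and 886.9 against 534.6 and 522.1. Both shTRPV4 arrays lay well above both shGFP arrays on each probe set. The differences were 0.72 (SE 0.08, adjusted p = 0.0282), which is 1.65-fold, and 0.69 (SE 0.08, adjusted p = 0.0295). The call was lost with an offset of 1 (0.73, adjusted p = 0.059), and over all settings tried the adjusted p ran from 0.0013 to 0.20 and the difference from 0.65 to 0.80.

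None of the other kinase genes passed the threshold on any probe set. Camkk2, the kinase that activates Camk1, read 524.7 and 519.2 in the shTRPV4 arrays and 559.8 and 536.8 in the shGFP arrays (−0.02, 95% interval −0.25 to 0.21), and its other probe sets differed by 0.10 and 0.08. Camk2d, a subunit of CaM kinase II, read 1099 and 1075 against 1215 and 1140 (−0.08, 95% interval −0.33 to 0.16). Camk2g, another such subunit, read 892.5 and 994.5 against 961.1 and 1074 (−0.08, 95% interval −0.31 to 0.14). For all 3 genes the groups overlapped after normalization on the brightest probe set. They did not overlap on the dimmer Camk2d probe set 1427763_a_at, at 148.0 and 145.1 in the shTRPV4 arrays and 182.4 and 176.9 in the shGFP arrays (−0.20, SE 0.08, adjusted p = 0.19), or on 1424475_at of Camkk2 (0.10, adjusted p = 0.43). The dimmer Camk2g probe set had a difference of 0.03.

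The upstream region of Camk1 is shown because this is the gene of the 26 called higher. It holds the 250 bases before the RefSeq start (GRCm38.p6, minus strand, read 5′ to 3′), with capitals on TGACG, the core of the cAMP and calcium response element (CRE) bound by CREB, a target of these kinases, and on GGAAA, the core bound by NFAT, on either strand.
Camk1 (chr6:113343923-113344172): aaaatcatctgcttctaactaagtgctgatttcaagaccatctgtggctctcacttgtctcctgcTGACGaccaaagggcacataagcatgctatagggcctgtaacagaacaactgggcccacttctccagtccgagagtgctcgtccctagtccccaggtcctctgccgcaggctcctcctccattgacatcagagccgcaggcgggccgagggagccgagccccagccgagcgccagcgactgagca
It holds TGACG at 1 place and no GGAAA. Of 32851 RefSeq promoter windows of this length, 17.8% hold TGACG and 55.6% hold GGAAA. A match describes the letters only.

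Ppp3ca alone of the 26 calcium genes was called lower on its brightest probe set, and it was called lower on all 3 of its probe sets. It encodes the alpha form of the catalytic subunit of calcineurin, the calcium- and calmodulin-dependent phosphatase that frees NFAT to enter the nucleus. On 1426401_at it read 1977 and 2200 in the shTRPV4 arrays and 2959 and 3106 in the shGFP arrays. The other probe sets gave 1639 and 1663 against 2225 and 2236 (1438478_a_at), and 1324 and 1386 against 1803 and 1964 (1452056_s_at). No shTRPV4 array reached a shGFP array on any of them. The differences were −0.51 (SE 0.07, adjusted p = 0.0364), −0.39 (SE 0.06, adjusted p = 0.046) and −0.44 (SE 0.07, adjusted p = 0.0411), and the first is a fall of 1.43-fold. On the brightest probe set the call was lost with the values as deposited (−0.54, adjusted p = 0.051) and with an offset of 1 (adjusted p = 0.069), and over all settings tried the adjusted p ran from 0.0025 to 0.20 and the difference from −0.56 to −0.44.

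The other catalytic subunits of calcineurin had differences of the opposite sign that did not pass. Ppp3cb, the beta form, read 1638 and 1565 in the shTRPV4 arrays and 1289 and 1300 in the shGFP arrays on 1433835_at. There the groups did not overlap (0.34, SE 0.07, adjusted p = 0.0746). Its dimmer probe set 1427468_at had the opposite sign (−0.09, adjusted p = 0.52). Ppp3cc, the gamma form, read 66.9 and 67.0 against 63.8 and 56.1 (0.20, SE 0.09, adjusted p = 0.22), and its other probe set differed by 0.24. Whether the subunit genes differ from each other in response was not tested.

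**Figure D3:**
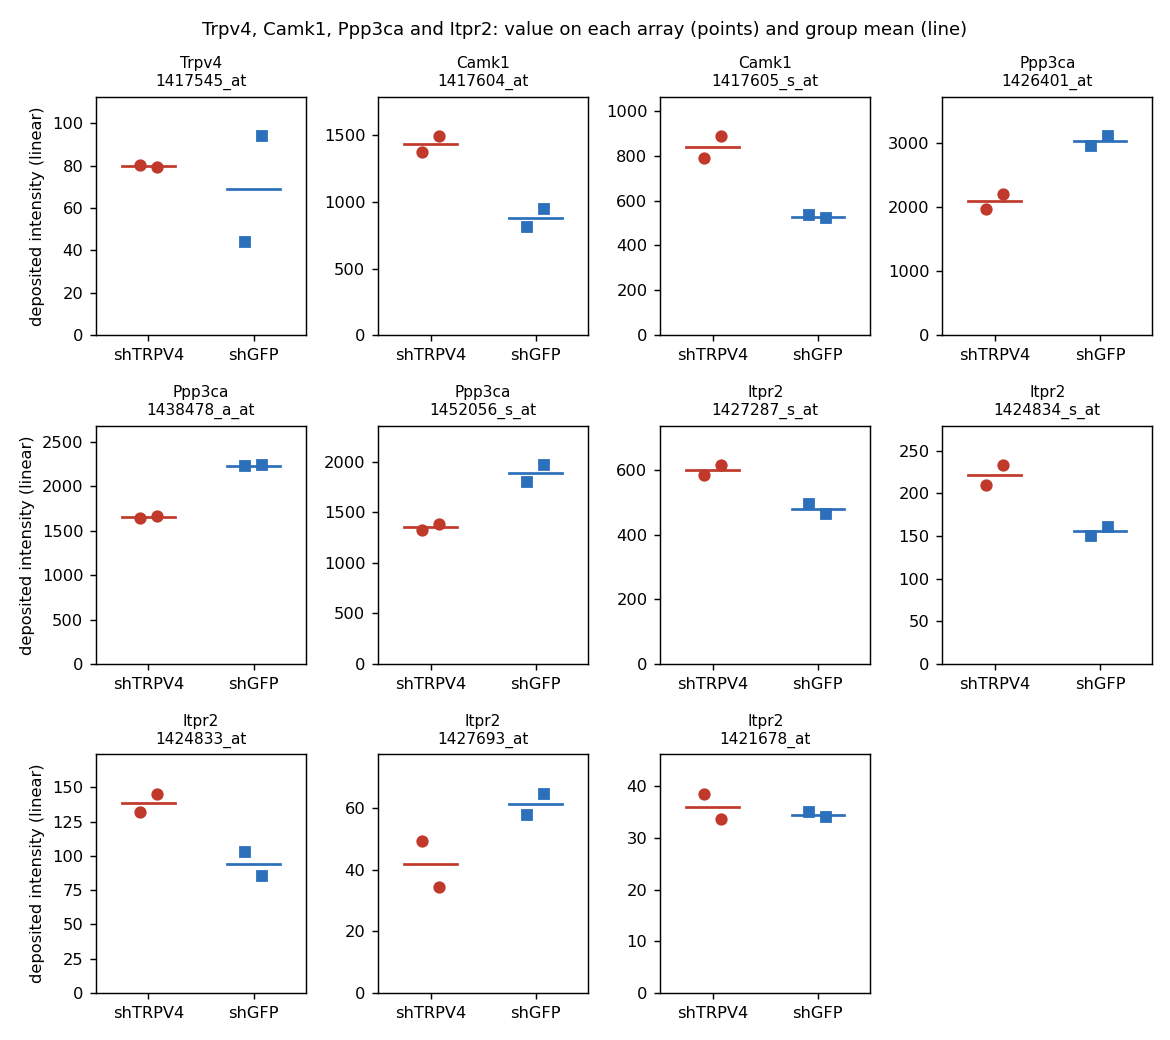
Deposited linear intensity on each array (points) and group mean (line) for all probe sets of Trpv4, Camk1, Ppp3ca and Itpr2, with shTRPV4 at the left and shGFP at the right (n = 2 each) and every axis from 0. Both Camk1 panels have shTRPV4 above shGFP, all 3 Ppp3ca panels have it below, the Trpv4 values of shTRPV4 lie between those of shGFP, and the 5 Itpr2 panels disagree.

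The transcription factors and the feedback genes on the calcineurin branch showed no call. Nfatc1, an NFAT factor, read 133.0 and 114.4 in the shTRPV4 arrays and 173.6 and 128.6 in the shGFP arrays, with overlap after normalization (−0.17, 95% interval −0.73 to 0.39). Its other probe set, 1425761_a_at, read below the offset, at 5.08 and 1 against 12.8 and 8.16. There the groups did not overlap, and the difference of −0.48 did not pass (adjusted p = 0.15). Nfatc3, another NFAT factor, read 1041 and 1047 against 1175 and 1139 (−0.12, 95% interval −0.32 to 0.08), while its probe set other than _s_at had the opposite sign (0.09, 95% interval −0.09 to 0.26). Rcan2, a calcineurin inhibitor, read 3.21 and 3.61 against 8.71 and 14.04, below the offset in both groups, so the size of its difference of −0.48 (adjusted p = 0.0863) depends on the offset. Its other probe set, also read below the offset, differed by −0.26 and did not pass.

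Rcan1 encodes a calcineurin inhibitor that NFAT itself switches on from a start site inside the gene, and is widely used as a readout of calcineurin activity. It read 383.4 and 353.0 in the shTRPV4 arrays and 363.0 and 415.2 in the shGFP arrays on 1416600_a_at. The groups overlapped, with a difference of −0.01 (SE 0.09, 95% interval −0.27 to 0.25, adjusted p = 0.95). The second probe set, 1416601_a_at, gave 70.8 and 57.2 against 78.1 and 63.5 (−0.05, 95% interval −0.47 to 0.37). Which of the 2 start sites below each probe set reads is not given in the sources used here.

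Both RefSeq upstream regions of Rcan1 are shown to set the calcium-responsive start beside the other (250 bases each, GRCm38.p6, minus strand, 5′ to 3′, with the same capitals as above).
Rcan1 start inside the gene (chr16:92400079-92400328): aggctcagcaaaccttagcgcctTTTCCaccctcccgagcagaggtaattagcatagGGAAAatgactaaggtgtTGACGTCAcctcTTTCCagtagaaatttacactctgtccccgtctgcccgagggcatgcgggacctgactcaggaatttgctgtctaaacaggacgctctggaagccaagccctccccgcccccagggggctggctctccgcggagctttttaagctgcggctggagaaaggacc
Rcan1 upstream start (chr16:92466170-92466419): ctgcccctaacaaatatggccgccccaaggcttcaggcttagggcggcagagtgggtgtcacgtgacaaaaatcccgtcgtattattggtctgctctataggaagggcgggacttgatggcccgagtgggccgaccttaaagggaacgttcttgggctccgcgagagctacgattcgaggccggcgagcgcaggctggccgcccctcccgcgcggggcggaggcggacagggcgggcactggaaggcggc
The window of the start inside the gene holds 3 matches to GGAAA, and 2 overlapping matches to TGACG on opposite strands that together form the full element TGACGTCA. The other window holds neither. At least 3 matches to GGAAA occur in 6.39% of all windows of this length, and TGACGTCA in 1.55%. The window of Ppp3cb also holds 3 matches to GGAAA. Promoter windows were found for 20 of the 26 genes, 27 windows in all. Of these, 8 hold GGAAA (29.6%, against 55.6% of all windows) and 6 hold TGACG (22.2%, against 17.8%).

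The S100 genes, which encode small calcium-binding adaptor proteins, differed by −0.13 to 0.14, and 0 of 3 passed with limma (also 0 at an unadjusted p under 0.05). S100a4, an adaptor that binds myosin and is also used as a fibroblast marker, read 10699 and 11328 in the shTRPV4 arrays and 11361 and 11809 in the shGFP arrays (−0.13, 95% interval −0.31 to 0.04). S100a6, also called calcyclin, read 12958 and 13160 against 11215 and 11673 (0.14, 95% interval −0.04 to 0.31). S100a10, the annexin A2 partner whose calcium-binding loops no longer bind calcium, read 7458 and 8024 against 6516 and 6934 on 1456642_x_at (0.14, 95% interval −0.05 to 0.33). Its probe set 1416762_at, without the _x_at mark of probe sets that can read related transcripts, differed by 0.01 (95% interval −0.18 to 0.19).

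Beside these genes, 120 further calcium genes were listed, of which 85 were measured. Of the 85, 4 rose and 3 fell, 4.71% and 3.53%, against 5.33% and 6.0% of all genes, and their median difference was 0.01. Those that rose included Tpcn1, a two-pore channel of endosomes and lysosomes, at 648.0 and 702.0 in the shTRPV4 arrays and 240.9 and 258.2 in the shGFP arrays. That is 2.70-fold (1.43, SE 0.07, adjusted p = 0.0147), but its dimmer probe sets had differences of −0.0033 (1451771_at) and −0.27 (1451772_at) that did not pass, and with its probe sets averaged the difference was 0.39 (adjusted p = 0.19). S100a1, an S100 protein known in muscle as a partner of SERCA and ryanodine receptors, read 3797 and 3868 against 2104 and 1918 (0.93, SE 0.09, adjusted p = 0.0228), and its second probe set also passed (0.97). With an offset of 1 the S100a1 call was lost (0.94, adjusted p = 0.0533).

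The remaining genes that rose lie on organelles. Mcoln1, a lysosomal TRP channel, read 845.6 and 948.7 in the shTRPV4 arrays and 658.6 and 703.9 in the shGFP arrays (0.43, SE 0.07, adjusted p = 0.0493). Its call was lost with the values as deposited (adjusted p = 0.094), with an offset of 1, with its probe sets averaged and on its probe set other than _s_at. Slc8b1, the sodium/calcium exchanger of mitochondria, read 352.7 and 368.0 against 274.4 and 299.1 (0.37, SE 0.06, adjusted p = 0.0496). That call was not kept in the deposited values without normalization (adjusted p = 0.11) or with an offset of 1.

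Among those that fell, P2rx4, an ATP-gated calcium-permeable channel, read 691.1 and 724.7 in the shTRPV4 arrays and 1212 and 1280 in the shGFP arrays. It fell by 0.77 on the log2 scale (SE 0.06, adjusted p = 0.0191), and its second probe set passed too (−0.71). S100a8, a subunit of calprotectin that neutrophils make in large amounts, read 1010 and 986.7 against 1958 and 2116 (−0.99, SE 0.07, adjusted p = 0.0174) on a probe set of the _s_at kind. S100a9, its partner, read 7.61 and 2.57 against 9.40 and 6.05, below the offset. The list of 6 neutrophil markers, which includes both, had sums of 1218 and 1158 in the shTRPV4 arrays and 2415 and 2619 in the shGFP arrays, of which S100a8 itself made up the most, with Mpo from 18.2 to 21.5 and Elane below 6.4 on the 4 arrays. Of the 6, 2 were lower, S100a8 and Camp. Camp read 176.8 and 144.2 in the shTRPV4 arrays and 424.2 and 462.4 in the shGFP arrays (−1.32, SE 0.13, adjusted p = 0.0225). Rcn1, an EF-hand protein of the endoplasmic reticulum, read 2909 and 3029 against 4109 and 4021 (−0.45, SE 0.07, adjusted p = 0.0421), a call lost with median centring (−0.35, adjusted p = 0.0598) and with an offset of 1.

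**Figure D4:**
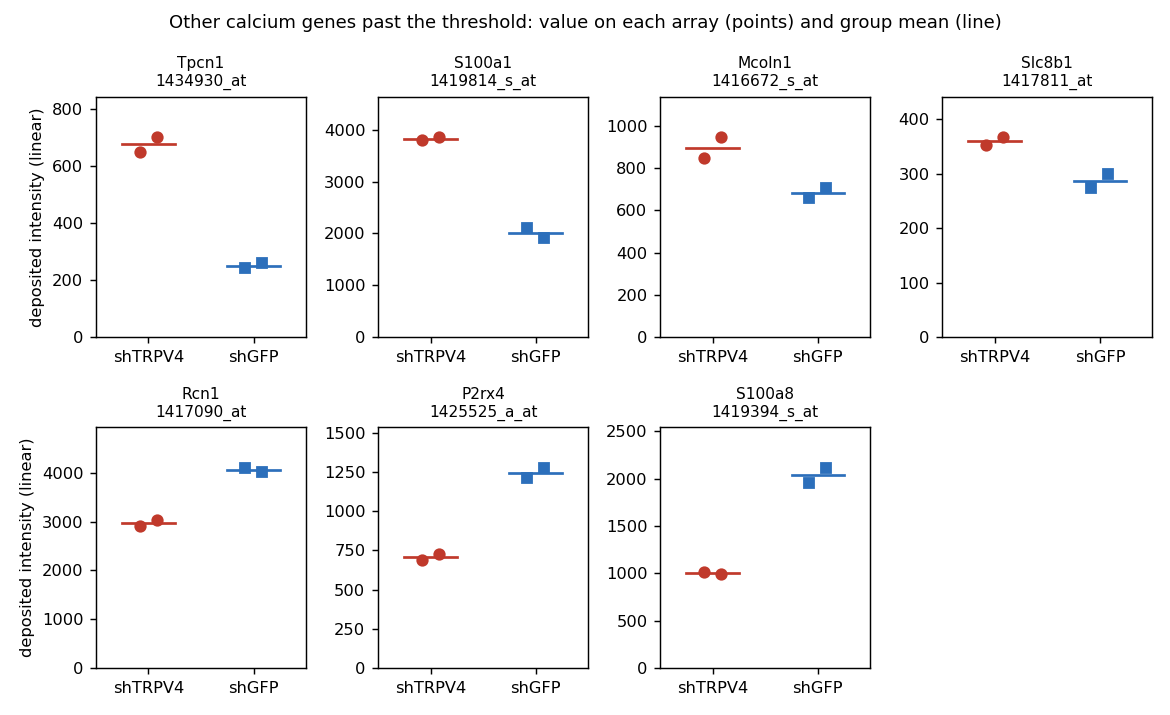
Deposited linear intensity on each array (points) and group mean (line) for the brightest probe sets of the 7 further calcium genes past the threshold, with shTRPV4 at the left and shGFP at the right (n = 2 each) and every axis from 0. In the panels of Tpcn1, S100a1, Mcoln1 and Slc8b1 both shTRPV4 arrays lie above both shGFP arrays, and in those of Rcn1, P2rx4 and S100a8 below.

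The plot of the settings shows how 5 calcium genes near the threshold moved; Trpc1, described above, is not among them. Besides Camk1 and Ppp3ca these are Itpr2, Itpr3 and Ppp3cb. For all 5 the sign was the same in all 14 alternatives, and the threshold was crossed in 8, 7, 4, 3 and 4 of them, in the order Camk1, Ppp3ca, Itpr2, Itpr3 and Ppp3cb. Itpr2 and Ppp3cb passed with an offset of 64, with either filter on dim probe sets and with an intensity trend, and Itpr3 with the first 3 of these.

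**Figure D5:**
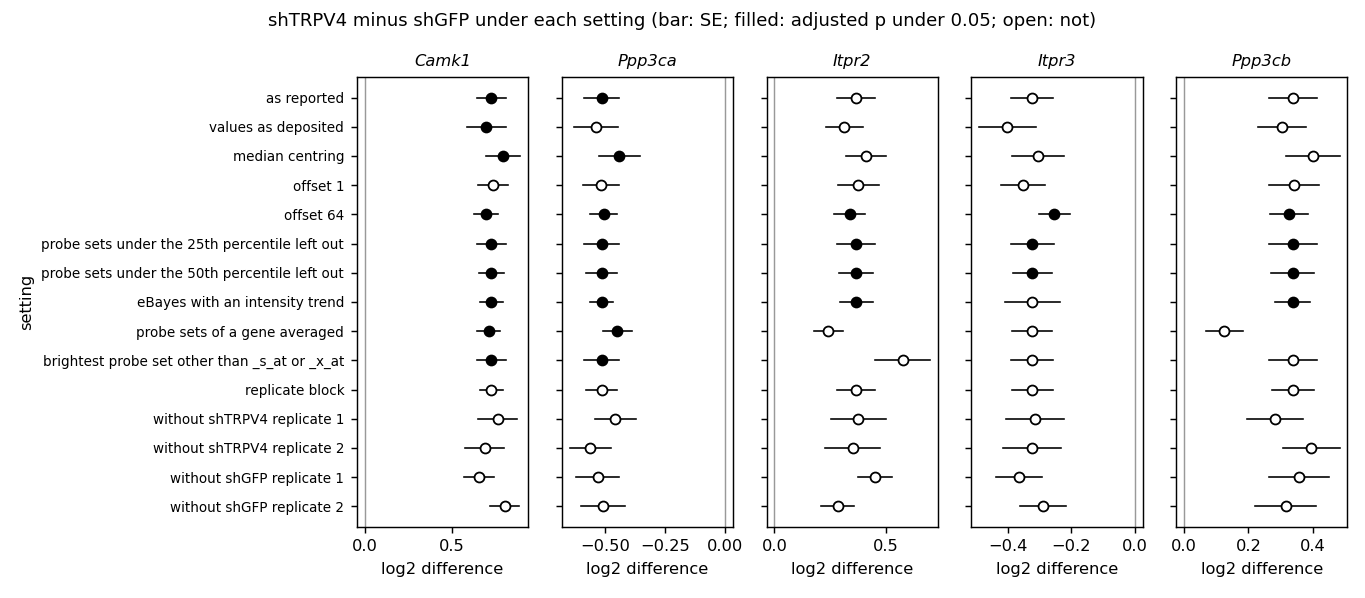
Log2 difference, shTRPV4 minus shGFP, with its SE (bar) for Camk1, Ppp3ca, Itpr2, Itpr3 and Ppp3cb as reported (top) and in each of 14 alternatives; filled points passed the threshold of an adjusted p under 0.05 and open ones did not. No point crosses 0, and none is filled with a replicate block or with an array left out.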

How the data were processed

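Biotin-labelled cRNA of 4 samples was read on Affymetrix arrays, according to the labels' protocols. The authors deposited 1 linear intensity per probe set and array for 22626 probe sets. How they corrected background, summarised probes and scaled arrays is not given in the sources used here. Detection calls were not used, so the level of background is unknown. Array medians ran from 129.4 to 144.0, and their log2 values spanned 0.14. The number of arrays limits the precision.

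From these values, log2(intensity + 16) was quantile normalized. The fit used R 4.3.3 and limma 3.58.1, with eBayes and no trend (2 residual and 1.80 prior degrees of freedom), and compared shTRPV4 minus shGFP over all probe sets. The scripts were tested on simulated data. An exact permutation test of 2 against 2 arrays cannot go below p = 0.333 (two-sided), so none is given. Genes were named from the platform annotation, with symbols checked against RefSeq GRCm38.p6 (20351 of 20380 single-gene probe sets matched, 0 symbols changed). A gene was represented by its brightest probe set. Promoter sequences are from RefSeq.

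All 34 listed genes were accounted for. Values on every array were set for those past the threshold on the brightest probe set, for Trpv4, and for genes whose other probe sets passed or opposed a pass, and other genes were given by ranges, counts or values as needed. Of the further calcium genes those past the threshold were named, at most 10. Orai1 and S100a9, which did not pass, were named besides. The members, lists and tests were chosen with earlier results of these data known. Alternatives covered normalization, the offset, filters on dim probe sets, the variance prior, the choice of probe set, a replicate block and leaving out each array.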

Additional observations from a re-analysis of the deposited data

How the results depend on the processing

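With 2 arrays in each group, the calls depended on the settings more than the differences did. Of 354 differences of single calcium genes over the alternatives, 18 changed sign, in 10 genes, and 0 of those 18 passed the threshold. With median centring Stim1 was 0.022, Camkk2 0.028, Rcan1 0.022 and S100a4 0.024. With probe sets averaged Stim1 was 0.12, Atp2c1 0.00097 and Camkk2 0.055. On its probe set other than _s_at Nfatc3 was 0.089. Without each array in turn the differences ranged from −0.093 to 0.727 for Trpv4, from −0.218 to 0.436 for Trpv2, from −0.0952 to 0.302 for Cacna2d1, from −0.033 to 0.0088 for Stim1, from −0.092 to 0.047 for Camkk2, from −0.402 to 0.066 for Nfatc1 and from −0.084 to 0.060 for Rcan1.

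The counts below give genes called higher and lower, for the 26 calcium genes, their 57 probe sets, the 85 further calcium genes and all genes in turn, where they moved by over 1.5 times. They were 1 and 1, 3 and 3, 4 and 3, and 661 and 744 as reported. With an offset of 1 they were 0 and 0 for the genes, 0 and 0 for the probe sets, 1 higher for the further genes, and 116 and 271 for all genes. With an offset of 64 they were 3 and 2, 7 and 5, 6 lower, and 1356 and 1221. With probe sets under the 25th percentile left out they were 4 and 2, 7 and 5, 5 lower, and 1298 and 1189. That filter kept 24 of the 26 calcium genes and 9632 of all 12393 genes. With probe sets under the 50th percentile left out they were 3 and 2, 6 and 5, 7 lower, and 1714 and 1370. Here 18 calcium genes and 6817 of all genes were kept. With an intensity trend the counts were 3 higher, 6 higher, 7 lower, and 1408 and 1236. With the values as deposited they were 0 lower, 1 lower, 2 higher and 380 higher. Median centring gave 1 probe set lower and 1036 genes higher, and averaging probe sets 2 further genes higher. The cause of these shifts was not tested. The filters test fewer genes and probe sets, so their counts are not out of the full sets. They also refit the variance prior on the probe sets kept, and the part of each was not tested.

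With a replicate block, limma called 0 genes and 0 probe sets in either direction in all of these sets (4029 genes at an unadjusted p under 0.05). Without each array in turn the counts ranged from 0 to 0 as well (2683 to 3417 genes at an unadjusted p under 0.05), and these fits assume that the lone array varies like the other group. Each has 1 residual degree of freedom. The labels give same-numbered arrays no more than a shared number. The correlation of their deviations from the group means was 0.12. With 2 arrays per group both pairs give this same value, and it cannot decide whether they share a culture. The alternatives for the further genes named, Pdgfra and Dlk1 were chosen after seeing the data, and 0 of them changed a sign.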
